A study of Mus musculus with 15 samples.

Results

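Interferon-inducible GTPases of the immunity-related GTPase (IRG) and guanylate-binding protein (GBP) families were followed in T cells sorted from mouse spleen as CD4+CD25+, a population labelled regulatory T (Treg) cells. The 7 genes were Iigp1, Irgm1, Irgm2, Igtp, Gbp2, Gbp3 and Gbp7, found by their symbols in the platform annotation, with the brightest probe set of each. They lay on 6 probe sets of the 10972 genes and shared family probe sets that were tested. Iigp1, Irgm1, Gbp3 and Gbp7 had a probe set of their own, 1 probe set was annotated to both Irgm2 and Igtp, and that of Gbp2 was also annotated to its neighbour Gbp2b, so no value below belongs to Irgm2, Igtp or Gbp2 alone. All 6 passed the filter on low values. The genes were chosen by their log2 signals on these same arrays, with the differences between dKO, Ikzf4-/-, Ikzf2-/- and WT known, so their levels and differences are a description and carry no test.

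RNA was measured on 15 single-colour arrays, 3 for each of 5 groups. These were mice lacking both Ikzf2 (Helios) and Ikzf4 (Eos), called dKO, mice lacking Ikzf4 (Ikzf4-/-) with wild-type (WT) arrays 1 to 3 beside them, and mice lacking Ikzf2 (Ikzf2-/-) with WT arrays 4 to 6. All were cells sorted from spleen, with 15 ng of RNA amplified for each array. The labels give no age, strain or sex, no Cre driver or cell type in which a gene was deleted, and do not say that arrays came from separate animals, so errors and p-values measure the spread between arrays, which may be technical. Levels are log2 signals per probe set after robust multi-array averaging (RMA), a scale on which different probe sets are not comparable. Exactly equal values were shared by 2286 probe sets on average between arrays of dKO, Ikzf4-/- and WT 1 to 3, by 34.4 between arrays of Ikzf2-/- and WT 4 to 6, and by 0.0741 across these sets. Levels of groups of different sets were therefore not compared, except for 1 alternative that pooled all WT arrays. The difference between both effects of Ikzf2 loss, and the search for genes of like pattern, do join both sets, through differences taken within each set.

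Both families are large GTP-binding proteins that cells make in response to interferon-gamma and, more weakly, to type I interferons. Interferon-gamma acts through its receptor and the kinases Jak1 and Jak2 on genes with GAS elements, and through Irf1, which binds interferon-stimulated response elements (ISRE). The GTPases are best known in infected cells, where GBPs and effector IRGs such as Iigp1 (Irga6) coat and break vacuoles that hold parasites or bacteria. Irgm1, Irgm2 and Igtp (Irgm3) are regulatory IRGs that sit on the cell's own membranes and hold the effectors in the GDP-bound state. In mouse T cells, loss of Irgm1 is known to impair survival under interferon-gamma. Helios and Eos belong to the Ikaros family of zinc finger transcription factors, which bind DNA at a core of TGGGAA.

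The promoters are shown because the members were grouped as interferon-inducible and these letters hold the elements behind that name. RefSeq start sites on GRCm38.p6 were given for 6 of the 7 genes, all but Iigp1. Each line holds the 110 bases before the annotated start, read 5′ to 3′ in the direction of the gene, and capitals mark matches to the ISRE (GAAA, any 2 bases and GAAA) or the GAS (TTCNNNGAA) on either strand. On chromosome 11 these were chr11:48871421-48871530 (minus strand) for Irgm1, chr11:58214867-58214976 (plus strand) for Irgm2 and chr11:58199446-58199555 (plus strand) for Igtp. On chromosome 3 they were chr3:142620553-142620662 for Gbp2, chr3:142559934-142560043 for Gbp3 and chr3:142530226-142530335 for Gbp7, all on the plus strand.
Irgm1: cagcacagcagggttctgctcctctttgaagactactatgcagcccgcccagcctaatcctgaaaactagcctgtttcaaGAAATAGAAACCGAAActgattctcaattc
Irgm2: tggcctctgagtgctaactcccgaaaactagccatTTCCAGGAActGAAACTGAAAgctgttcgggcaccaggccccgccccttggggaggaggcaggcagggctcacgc
Igtp: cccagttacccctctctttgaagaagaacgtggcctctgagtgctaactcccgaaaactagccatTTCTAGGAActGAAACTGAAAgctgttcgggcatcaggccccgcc
Gbp2: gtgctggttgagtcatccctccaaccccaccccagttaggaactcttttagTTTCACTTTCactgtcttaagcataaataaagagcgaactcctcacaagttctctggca
Gbp3: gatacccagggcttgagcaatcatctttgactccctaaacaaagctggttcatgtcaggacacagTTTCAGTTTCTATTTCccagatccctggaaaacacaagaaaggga
Gbp7: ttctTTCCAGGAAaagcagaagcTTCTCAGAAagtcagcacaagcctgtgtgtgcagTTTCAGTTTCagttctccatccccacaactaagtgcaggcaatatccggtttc

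All 6 genes held an ISRE match in the 250 bases before at least 1 annotated start. Counted by start and not by gene, 2.98% of the 32851 promoters of the table held one. The match is not particular to the members: of 7 other genes of these families with a promoter, 6 held an ISRE match, 5 a GAS match and 2 the TGGGAA core. Among the members, the nearest ISRE match began 24 bases before the start in Irgm1, 64 in Irgm2, 34 in Igtp, 59 in Gbp2, 39 in Gbp3 and 53 in Gbp7. Irgm1 and Gbp3 each held 2 ISRE matches that overlap each other. A second annotated start of Gbp3 had no match to any of the 3 motifs. GAS matches lay in the promoters of Irgm2, Igtp and Gbp7, against 7.02% of all promoters, and in Irgm2 and Igtp the GAS match stood just before the ISRE match in nearly the same surrounding letters. The TGGGAA core of the Ikaros family was found in Gbp3, where on the minus strand it overlaps an ISRE match, and in Gbp7, while 21.59% of all promoters held it. These are matches of letters in a window and say nothing of whether a factor binds there.

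The arrays were first set against their labels. Log2 signals over the 15 arrays were 10.75 to 11.48 for Cd3e, 8.78 to 10.05 for Cd4, 10.10 to 11.16 for Foxp3 and 10.23 to 11.10 for Il2ra, the markers of T cells and Treg cells. Ikzf2 itself gave 10.06, 9.15 and 9.22 in Ikzf2-/- arrays, against 10.25, 10.38 and 10.38 in WT 4 to 6 (limma, log2 difference -0.86, SE 0.20, adjusted p = 0.0881). In dKO arrays it gave 10.11, 10.16 and 10.59, against 10.46, 10.74 and 10.76 in WT 1 to 3, so that the array labelled dKO 3 lay within the WT range. Ikzf4 was no lower in Ikzf4-/- arrays (8.22, 8.13 and 8.19) than in WT 1 to 3 (7.83, 8.07 and 8.02). The sources do not say whether these probe sets lie inside the deleted part of the genes, and a probe set outside it checks nothing.

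Some arrays stood apart in markers of other cells. The summed linear signal of the 7 measured B cell markers (of 8 listed) was 1228 in WT 1, against 205 to 297 in the other arrays of its set, and 2202 in Ikzf2-/- 3, against 257 to 590 in the others of its set. Each of these arrays also had the highest sum of its set for the 7 neutrophil markers (3656 and 10257) and for the 8 macrophage and monocyte markers (751 and 1180). Ikzf2-/- 2 had the lowest Cd3e, Cd4, Foxp3 and Il2ra signals of its set. Eif2s3y, a Y-linked gene, read 7.94 to 8.81 in dKO 2, dKO 3, Ikzf4-/- 3 and WT 3 and 2.87 to 3.09 in the other 11 arrays. No marker is at 0, since RMA gives every probe set a positive level. In bulk samples, fewer cells of a type and less RNA per cell cannot be told apart.

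In dKO cells the GTPases read higher than in Ikzf4-/- cells. All 6 probe sets had a positive log2 difference, with a median of 0.45 against -0.0015 over all genes tested, and 4 of them (Iigp1, Irgm1, the Gbp2/Gbp2b probe set and Gbp3) had all 3 dKO arrays above all 3 Ikzf4-/- arrays. Over all genes tested, 4.13% were above in this way. Joined by replicate number, 5 of the 6 probe sets were higher in dKO in all 3 pairs, and 13.7% of all genes tested were. At an adjusted p threshold of 0.05 in limma with the replicate number as a block, 1 of the 6, Iigp1, passed, against 0.0182% of all genes tested. That call was lost without the block (adjusted p = 0.117) and whenever a single array other than WT 1 was left out (8 of the 9 arrays). Because these contrasts chose the genes, nothing is read from these counts.

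Iigp1, an effector IRG, had the widest gap. Its log2 signals were 9.09, 8.72 and 9.17 in dKO arrays, 7.93, 7.93 and 8.12 in Ikzf4-/- arrays, and 8.23, 8.23 and 8.54 in WT 1 to 3. Each dKO array was above each of the other 6, and each Ikzf4-/- array was below each WT array. The log2 difference was 1.00 (SE 0.09, 2.00-fold) between dKO and Ikzf4-/- arrays, with 1.16, 0.79 and 1.05 in the 3 pairs, and stayed between 0.91 and 1.11 over the 20 alternatives tried. Against WT it was 0.66 (SE 0.19, 1.58-fold) in dKO and -0.34 (SE 0.19) in Ikzf4-/- arrays. These comparisons share arrays and are not independent of each other.

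The regulatory IRGs had smaller differences. Irgm1 read 8.72, 8.58 and 8.39 in dKO arrays, 8.10, 8.31 and 8.13 in Ikzf4-/- arrays and 8.17, 8.60 and 7.96 in WT 1 to 3. The dKO arrays were above all Ikzf4-/- arrays, but WT 2 reached the dKO level. The log2 difference of dKO was 0.38 (SE 0.12) from Ikzf4-/- and 0.32 (SE 0.19) from WT.

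The probe set annotated to both Irgm2 and Igtp read 10.42, 10.17 and 10.45 in dKO arrays, 10.18, 9.93 and 10.20 in Ikzf4-/- arrays and 10.13, 10.16 and 10.28 in WT 1 to 3. These groups overlap, and number 2 was the lowest of its group in both knockouts. Within pairs the gap hardly varied, at 0.24, 0.24 and 0.25, with a mean log2 difference of 0.24 (SE 0.07) between dKO and Ikzf4-/- arrays and 0.16 (SE 0.11) between dKO and WT.

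Among the GBPs, which bind to pathogen vacuoles and to bacteria in the cytosol, the probe set shared by Gbp2 and Gbp2b had the widest gap of the 3 member probe sets. It read 9.47, 9.13 and 9.13 in dKO arrays, 8.85, 8.47 and 8.74 in Ikzf4-/- arrays and 8.61, 8.72 and 8.68 in WT 1 to 3. Every dKO array was above every array of both other groups, which lay close together. The log2 difference of dKO was 0.56 (SE 0.11, 1.47-fold) from Ikzf4-/- and 0.57 (SE 0.20, 1.49-fold) from WT.

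Gbp3 read 9.05, 8.89 and 9.01 in dKO arrays, 8.48, 8.43 and 8.52 in Ikzf4-/- arrays and 8.64, 8.57 and 8.39 in WT 1 to 3. Again no dKO array overlapped the other groups, and the 3 pairs gave 0.57, 0.47 and 0.49. The log2 difference of dKO was 0.51 (SE 0.08) from Ikzf4-/- and 0.45 (SE 0.13) from WT.

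Gbp7, which in mouse macrophages has been linked to oxidative defence, was the exception. It read 9.74, 9.31 and 9.39 in dKO arrays, 9.34, 9.24 and 9.39 in Ikzf4-/- arrays and 9.39, 9.51 and 9.15 in WT 1 to 3, and only dKO 1 was above the other groups. The log2 difference of dKO was 0.16 (SE 0.12) from Ikzf4-/- and 0.13 (SE 0.22) from WT, and without dKO 1 the one from WT was -0.004. GBP genes are near copies of one another, so how much each probe set reads of its neighbours is uncertain.

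**Figure D1:**
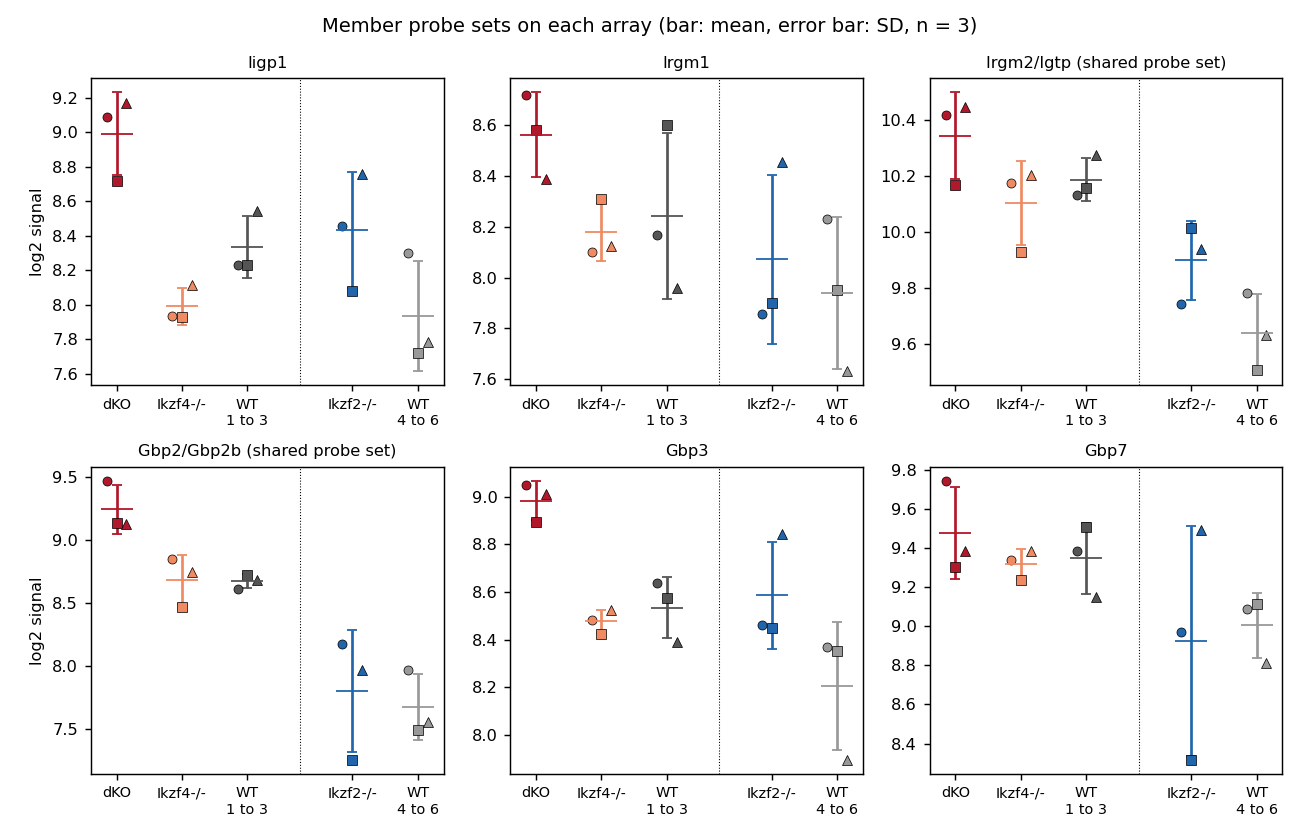
Log2 signal of the 6 member probe sets (vertical axes) on each array, by group; points are arrays, in the order of their replicate numbers (circle, square, triangle), the bar is the mean and the error bar the SD (n = 3). The dotted line divides sets whose levels are not comparable. For Iigp1, the Gbp2/Gbp2b probe set and Gbp3 the 3 dKO arrays lie above all Ikzf4-/- and WT 1 to 3 arrays.

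Against WT 1 to 3, dKO arrays were higher in mean for all 6 probe sets. The median log2 difference was 0.39, against 0.0039 over all genes tested. For 3 of the 6 (Iigp1, the Gbp2/Gbp2b probe set and Gbp3) all dKO arrays were above all WT arrays, and 5.36% of all genes tested were above in this way. None of the 6 passed the adjusted threshold in limma, which 0.0638% of all genes tested did. These contrasts chose the genes, so nothing is read from these counts. Without the array labelled dKO 3, whose Ikzf2 signal lay in the WT range, the log2 differences of dKO from WT were 0.57 for Iigp1, 0.41 for Irgm1, 0.11 for the Irgm2/Igtp probe set, 0.63 for the Gbp2/Gbp2b probe set, 0.44 for Gbp3 and 0.18 for Gbp7, and their median was 0.42. B cell markers had a lower mean in dKO for all 7, with sums of 209.9 to 231 in dKO arrays, against 232 to 1228 in WT 1 to 3, the highest in WT 1. Without WT 1 the median of the members was 0.39.

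Ikzf4-/- arrays were close to WT 1 to 3. The log2 differences ran from -0.34 (Iigp1) to 0.01 (the Gbp2/Gbp2b probe set), with a median of -0.06 against 0.006 over all genes tested. Iigp1 was the 1 of 6 with all Ikzf4-/- arrays below all WT arrays, as 2.92% of all genes tested were. None of the 6 passed the adjusted threshold, and no gene did (0.0%). All 7 B cell and all 7 neutrophil markers had a lower mean in Ikzf4-/- arrays, with B cell sums of 205 to 277 in Ikzf4-/- arrays, against 232 to 1228 in WT, and neutrophil sums of 154 to 339 in Ikzf4-/- arrays, against 161 to 3656 in WT. Without WT 1, the highest in both, the members' median was -0.06.

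**Figure D2:**
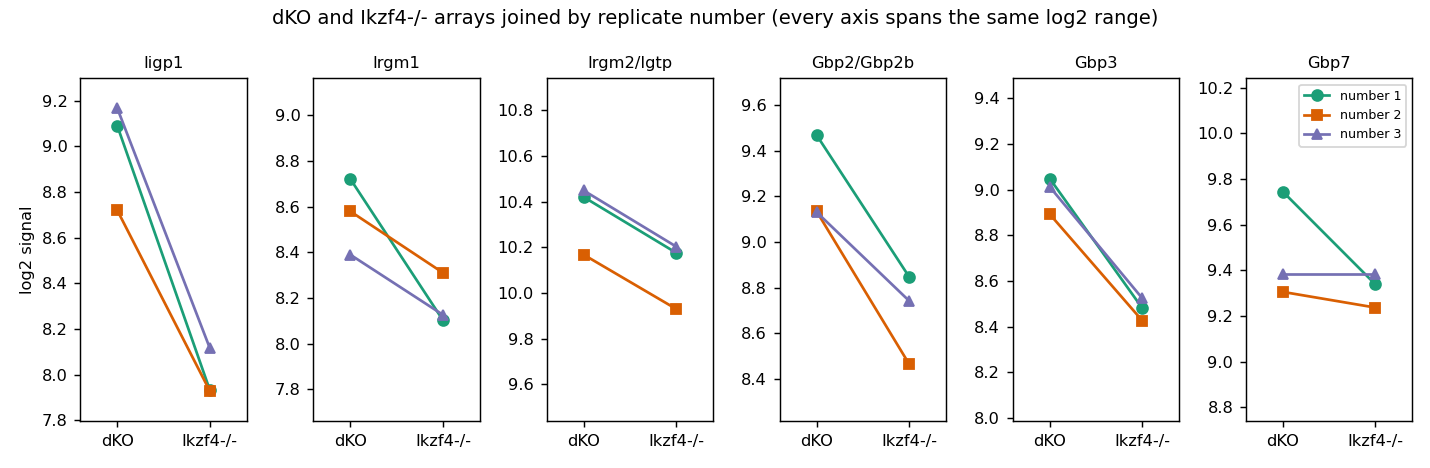
Log2 signal of the 6 member probe sets in dKO (left) and Ikzf4-/- arrays (right), joined by replicate number; all 6 vertical axes span the same range. In 5 of the 6 probe sets all 3 lines fall to the right, steepest for Iigp1, and for Gbp7 the line of number 3 is level.

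Some lists of markers of other cells moved with the difference between dKO and Ikzf4-/- arrays, and others did not. All 7 neutrophil markers had a higher mean in dKO, with sums of 357 to 763 in dKO arrays, against 154 to 339 in Ikzf4-/- arrays. All 4 genes listed as plasma cell markers (Jchain, Sdc1, Xbp1 and Prdm1) had a higher mean too, with sums of 335 to 466 in dKO arrays, against 273 to 306 in Ikzf4-/- arrays. B cell markers were higher in 2 of 7, macrophage and monocyte markers in 6 of 8 and NK cell markers in 1 of 4. Dendritic cell markers were higher in 2 of 6, CD8 T cell markers in 0 of 2 and the erythroid marker in 1 of 1. The part of these cells in the GTPase signal was not tested. In the pair of number 2, the Eif2s3y signal was 7.94 in dKO and 2.97 in Ikzf4-/-. With Eif2s3y as a covariate, the log2 difference between dKO and Ikzf4-/- arrays was 1.11 for Iigp1 and 0.54 for Gbp3.

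In Ikzf2-/- arrays the GTPases were more scattered. Iigp1 read 8.46, 8.08 and 8.75 in Ikzf2-/- arrays, against 8.30, 7.72 and 7.78 in WT 4 to 6 (log2 difference 0.50, SE 0.19). Gbp3 read 8.46, 8.45 and 8.84 in Ikzf2-/- arrays, against 8.37, 8.35 and 7.90 in WT 4 to 6 (log2 difference 0.38, SE 0.13). Gbp3 was the 1 of 6 without overlap, with WT 4 close to the lowest Ikzf2-/- arrays, and 10.7% of all genes tested were above in this way. WT 4 had the highest Iigp1, Irgm1, Irgm2/Igtp, Gbp2/Gbp2b and Gbp3 signal of its group.

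The Irgm2/Igtp probe set read 9.74, 10.01 and 9.94 in Ikzf2-/- arrays, against 9.78, 9.51 and 9.63 in WT 4 to 6 (log2 difference 0.26, SE 0.11). Irgm1 read 7.86, 7.90 and 8.46 in Ikzf2-/- arrays, against 8.23, 7.95 and 7.63 in WT 4 to 6. The Gbp2/Gbp2b probe set read 8.18, 7.25 and 7.96 in Ikzf2-/- arrays, against 7.97, 7.49 and 7.55 in WT 4 to 6. For these 3 probe sets the groups overlapped, and the log2 differences of Irgm1 and the Gbp2/Gbp2b probe set were each 0.13 (SE 0.19 and 0.20).

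Gbp7 read 8.97, 8.32 and 9.49 in Ikzf2-/- arrays, against 9.09, 9.11 and 8.81 in WT 4 to 6 (log2 difference -0.08, SE 0.22). Its Ikzf2-/- arrays lay on both sides of the WT arrays. The median over the 6 probe sets was 0.20 against 0.02 over all genes tested, 5 of 6 were positive, and none passed the adjusted threshold, which 0.0638% of all genes tested did.

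Single arrays carried much of this spread. Ikzf2-/- 3, the array with the most B cell and neutrophil marker signal of its set, had the highest Iigp1, Irgm1, Gbp3 and Gbp7 of its set. Without it the log2 differences were 0.33 for Iigp1, -0.06 for Irgm1, 0.24 for the Irgm2/Igtp probe set, 0.04 for the Gbp2/Gbp2b probe set, 0.25 for Gbp3 and -0.36 for Gbp7. Without Ikzf2-/- 2, the array with the weakest T cell markers of its set, they were 0.67, 0.22, 0.20, 0.40, 0.45 and 0.23 in the same order, all positive. All 7 neutrophil markers and all 7 B cell markers had a higher mean in Ikzf2-/- arrays, with neutrophil sums of 1056 to 10257 in Ikzf2-/- arrays, against 272 to 507 in WT 4 to 6. Their part in the GTPase signal was not tested.

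The difference between both effects of Ikzf2 loss, dKO minus Ikzf4-/- set against Ikzf2-/- minus WT 4 to 6, was described for the members and tested for other genes. It ran from -0.02 (the Irgm2/Igtp probe set) to 0.50 (Iigp1, SE 0.26), with a median of 0.24 against -0.02 over all genes tested. Without Ikzf2-/- 3 that median was 0.48. None of the 6 passed, and no gene did in limma (0.0%).

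The rest of the IRG and GBP families, with Mx and Gvin genes, was measured on 19 further probe sets, of which 18 passed the filter (Irgc1 did not). No probe set of the 18 passed limma's adjusted threshold in any comparison, under any alternative run. At an unadjusted p under 0.05, 5 of the 18 passed in dKO against WT (4.39%), 9 in dKO against Ikzf4-/- (7.13%), 0 in Ikzf4-/- against WT (2.18%) and 5 in Ikzf2-/- against WT (16.4%), each with the share of all genes tested in brackets. For the difference between both effects of Ikzf2 loss, 4 of the 18 did (6.29%), 16 of 18 were positive and the median was 0.23. Gbp11 was among these 4 and among the 5 in Ikzf2-/- against WT, and it passed the filter only through its WT 4 to 6 mean. All dKO arrays were above all WT 1 to 3 arrays for 5 of the 18 (5.36% of all genes tested) and above all Ikzf4-/- arrays for 9 (4.13%). These genes were not named in the choice of the 7, but they are their neighbours and relatives and were listed with earlier results known. Gbp2b among them is also annotated to the member probe set of Gbp2, so it is not separate from the members.

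Gbp2b, the mouse gene once called Gbp1, had on its own probe set the largest difference of the 18 between dKO and WT. It read 7.77, 7.81 and 8.15 in dKO arrays, 7.20, 7.03 and 7.29 in Ikzf4-/- arrays and 6.999, 7.01 and 6.68 in WT 1 to 3. No dKO array overlapped the others, and all Ikzf4-/- arrays were above all WT arrays, which held for 3.62% of all genes tested. The log2 difference was 1.01 (SE 0.22, 2.02-fold, adjusted p = 0.236) between dKO and WT and 0.73 (SE 0.14, adjusted p = 0.327) between dKO and Ikzf4-/-. In Ikzf2-/- arrays it read 7.98, 8.34 and 8.72, against 7.75, 8.09 and 7.17 in WT 4 to 6 (log2 difference 0.68, SE 0.22, adjusted p = 0.157).

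Gm4951 is an IRG gene beside Iigp1 on chromosome 18. It read 6.45, 6.44 and 5.44 in dKO arrays, 5.33, 5.21 and 4.91 in Ikzf4-/- arrays and 5.05, 5.40 and 4.94 in WT 1 to 3. The dKO arrays were above all others, dKO 3 by little. The log2 difference was 0.96 (SE 0.17, adjusted p = 0.215) between dKO and Ikzf4-/-, and 0.97 (SE 0.33, adjusted p = 0.810) between dKO and WT. In Ikzf2-/- arrays Gm4951 read 6.23, 5.44 and 6.93, against 5.61, 5.33 and 4.96 in WT 4 to 6 (log2 difference 0.90, SE 0.33, adjusted p = 0.203). The groups overlap, and the difference was 0.53 without Ikzf2-/- 3 and 1.28 without Ikzf2-/- 2.

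The chromosome 11 IRG genes gave 7 probe sets with the members. All 7 were positive in dKO against WT (median 0.23) and against Ikzf4-/- (median 0.30). Among them were Gm12250 (Irgb10, an effector IRG that acts with GBPs on bacteria), with a log2 difference between dKO and Ikzf4-/- of 0.44 (SE 0.14, adjusted p = 0.617), or 0.25 without dKO 1, and the probe set shared by Tgtp1 and Tgtp2 (Irgb6), with 0.34 (SE 0.11, adjusted p = 0.619).

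The mouse GBP genes lie in 2 clusters. On chromosome 3, the 5 probe sets of Gbp2/Gbp2b, Gbp2b, Gbp3, Gbp5 and Gbp7 had a median log2 difference of 0.45 in dKO against WT, 5 of 5 positive and 3 with all dKO arrays above all WT arrays (5.36% of all genes tested). Of these 5, Gbp2/Gbp2b, Gbp3 and Gbp7 are members chosen with their differences known, while no member lies on chromosome 5, so the clusters were not set against each other. On chromosome 5, the 5 probe sets of Gbp4, Gbp8, Gbp9, Gbp11 and 1 shared by their copies had a median of 0.14, 3 of 5 positive and none with all dKO arrays above. Among the genes that are no members, the log2 difference in dKO against WT was 1.01 for Gbp2b and 0.26 for Gbp5 on chromosome 3. On chromosome 5 it was 0.25 for Gbp4 and 0.24 for Gbp8. Gbp2b is also annotated to the member probe set Gbp2/Gbp2b, so it is not separate from the choice. In Ikzf2-/- against WT 4 to 6, the log2 difference was 0.68 for Gbp2b and 0.13 for Gbp5, which are no members. On chromosome 5, 0 of 5 were positive (median -0.25). These 5 are not independent, since 1 is shared by copies, and Gbp11 passed the filter only through WT 4 to 6.

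Of the chromosome 5 genes, Gbp9 had the largest difference between Ikzf2-/- and WT arrays. It read 8.64, 8.26 and 8.98 in Ikzf2-/- arrays, against 9.23, 9.04 and 9.16 in WT 4 to 6, with no overlap (log2 difference -0.51, SE 0.15, adjusted p = 0.134). Gbp11, with signals of 4.22 to 5.13 near the filter, also had all Ikzf2-/- arrays below all WT 4 to 6 arrays, as 5.5% of all genes tested did. Gbp9 read 9.70, 9.39 and 9.41 in dKO arrays, against 9.38, 9.69 and 9.45 in WT 1 to 3 (log2 difference -0.01, SE 0.15). The difference between both effects of Ikzf2 loss was 0.56 for Gbp9 (SE 0.22, adjusted p = 0.761) and 0.46 for Gbp4 (SE 0.16, adjusted p = 0.761), and neither passed. Mx1 and Mx2, antiviral GTPases that respond to type I interferon, had log2 differences of -0.02 each in dKO against WT (SE 0.22 and 0.31).

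**Figure D3:**
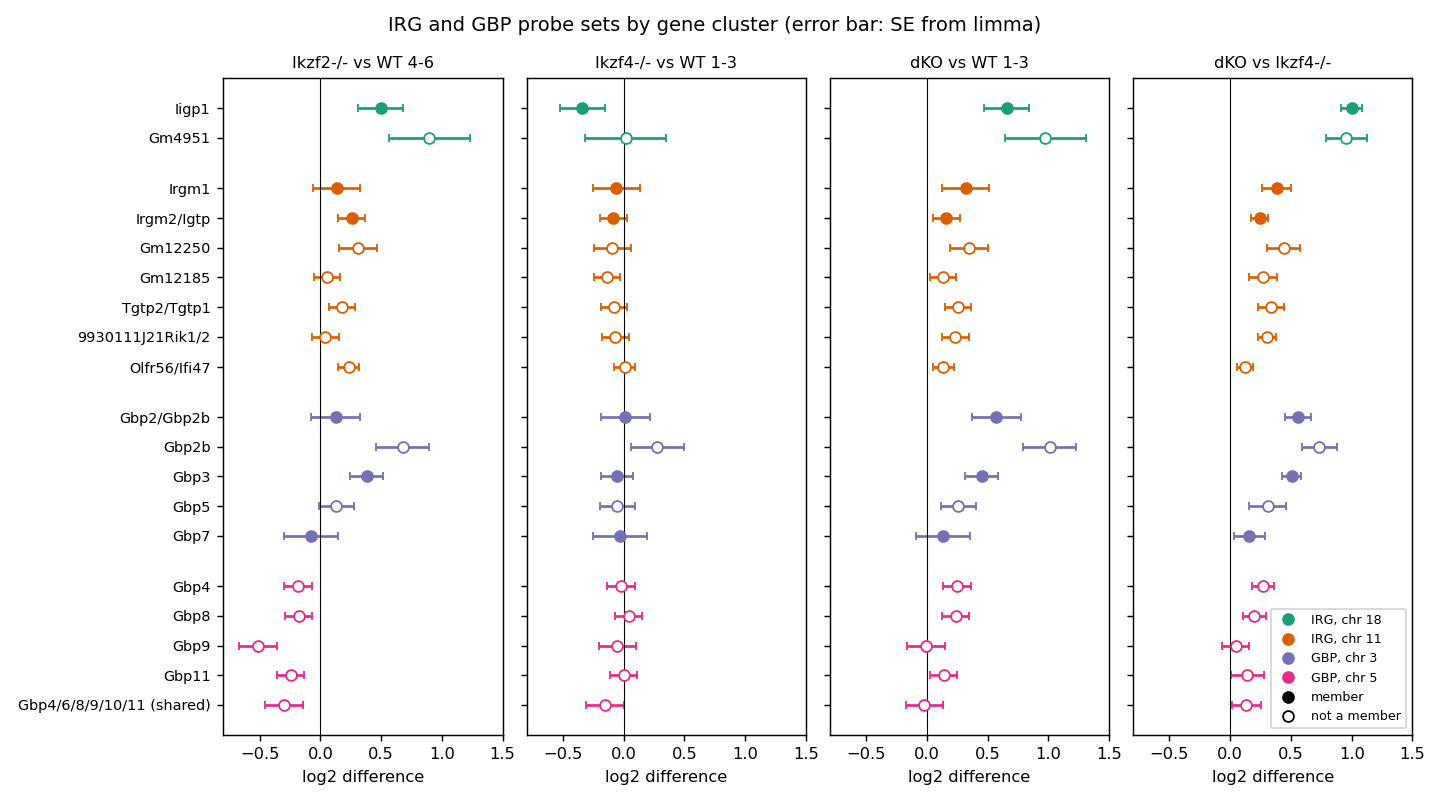
Log2 differences of 19 IRG and GBP probe sets (rows, by chromosome cluster) in 4 comparisons (panels); filled points are the 6 probe sets of the chosen genes, open points other genes of the families, and error bars are SE from limma. In both dKO panels most points lie right of 0, furthest for Iigp1, Gm4951 and Gbp2b. In the Ikzf2-/- panel all 5 chromosome 5 probe sets lie left of 0, of which Gbp11 passed the filter only through WT 4 to 6.

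The interferon pathway around the GTPases was covered by 8 lists with 86 genes, of which 81 had a named probe set and 75 passed the filter. No gene of these lists passed limma's adjusted threshold in either direction in any comparison. At an unadjusted p under 0.05, 6 of 75 passed in dKO against WT (4.39% of all genes tested), 8 in dKO against Ikzf4-/- (7.13%), 3 in Ikzf4-/- against WT (2.18%) and 10 in Ikzf2-/- against WT (16.4%).

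Of the ligand and its receptor, Ifng itself read 5.91, 5.49 and 6.05 in dKO arrays, 4.59, 4.93 and 5.21 in Ikzf4-/- arrays and 4.87, 5.44 and 5.21 in WT 1 to 3. The dKO arrays were above all others, dKO 2 by little. The signals lay near the filter of 4.96, and among these arrays Ikzf4-/- 1, Ikzf4-/- 2 and WT 1 read below it. The log2 difference was 0.90 (SE 0.18, adjusted p = 0.376) between dKO and Ikzf4-/-, 0.64 (SE 0.21, adjusted p = 0.757) between dKO and WT, and 0.44 (SE 0.21) between Ikzf2-/- and WT 4 to 6. The receptor chains Ifngr1 and Ifngr2 had log2 differences of 0.12 and -0.11 in dKO against WT.

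Of the kinases and transcription factors of the interferon-gamma signal, 6 were tested and none passed. Irf1, which drives GBP and IRG genes, read 8.82, 8.48 and 8.56 in dKO arrays, against 8.62, 8.75 and 8.82 in WT 1 to 3 (log2 difference -0.10, SE 0.18), and the 6 genes ran from -0.10 to 0.21 with a median of -0.02. They reached 0.31 in dKO against Ikzf4-/- and 0.58 in Ikzf2-/- against WT, with 1 gene at an unadjusted p under 0.05 in each, and -0.35 in Ikzf4-/- against WT, with 0. The type I receptor and signal list, with Stat2 and Irf7, had a median of -0.06 over 6 genes. Among inhibitors, Socs3, which blocks cytokine receptors, had a log2 difference of 0.42 (SE 0.10) between dKO and Ikzf4-/- arrays and 0.28 (SE 0.13) between dKO and WT, and did not pass. Usp18, which restrains the type I receptor, had -0.16 in dKO against WT.

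Other genes that interferon-gamma is known to induce had medians near 0. Over 14 tested genes of antigen presentation, chemokines and the like, the median log2 difference in dKO against WT was -0.01, from -0.27 (Cxcl10) to 0.12, with 7 of 14 positive. Ciita and Tapbp, which act in antigen presentation, had -0.24 and -0.17. Against Ikzf4-/- the median was 0.04, from -0.18 to 0.15.

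Targets of type I interferon had differences of both signs, and none passed. In dKO against WT, Oasl2 had a log2 difference of -0.80 (SE 0.20) with all dKO arrays below all WT arrays, Ifit1 had -0.34 (SE 0.36) and Isg20 had 0.42 (SE 0.17) with all dKO arrays above. Oasl2 was likewise lower in mean in Ikzf4-/- arrays (-0.85, SE 0.20) and higher in mean in Ikzf2-/- arrays (0.63, SE 0.20). The median over 16 tested targets was -0.03, with 7 positive.

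The proteins that load GTPases onto vacuoles, and those that act after them, were also followed. Over the 10 genes of autophagy conjugation the median in dKO against WT was -0.01, with Gabarapl1 at -0.40 (SE 0.15) and Atg3 at 0.11. Among 12 tested inflammasome and vacuole partners the median was -0.03. Casp4, the caspase-11 gene, had -0.53 (SE 0.36) in dKO against WT, -1.06 (SE 0.36) in Ikzf4-/- against WT and 0.53 (SE 0.15) in dKO against Ikzf4-/-. For Casp4 all arrays of dKO and of Ikzf4-/- were below all WT 1 to 3 arrays. Aim2, a DNA sensor, had -0.42 (SE 0.19) and Lgals3, a lectin that marks broken vacuoles, 0.26 (SE 0.13) in dKO against WT. None of these passed.

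**Figure D4:**
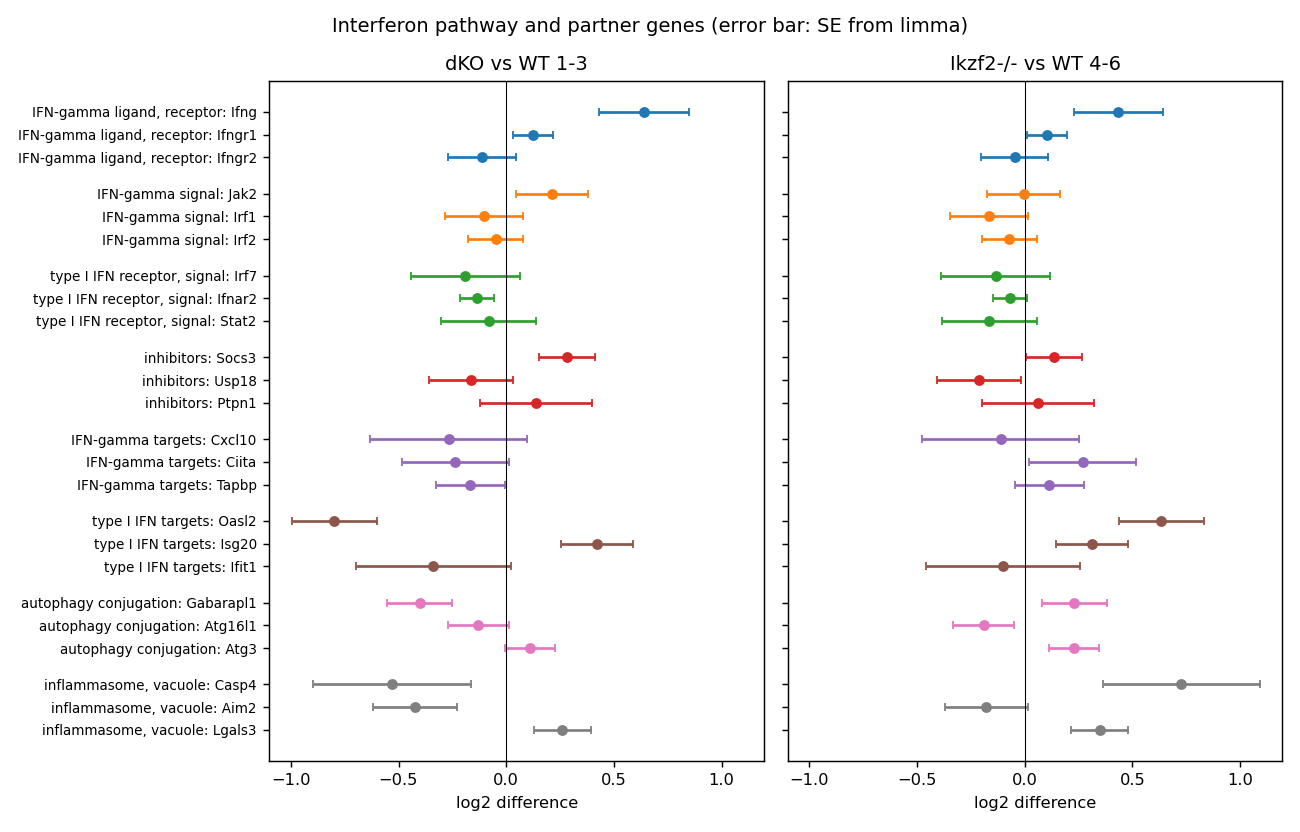
Log2 differences of 3 named genes from each of 8 interferon pathway and partner lists (rows) in dKO against WT 1 to 3 (left) and Ikzf2-/- against WT 4 to 6 (right); error bars are SE from limma. Ifng lies right of 0 in both panels, at 0.64 and 0.44, while the receptor and signal genes shown lie closer to 0, and Oasl2 lies on opposite sides. The genes shown were picked by their difference in dKO against WT. A gene of the interferon-gamma signal that is not shown reached 0.58 in Ikzf2-/- against WT 4 to 6.

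Genes whose pattern was most like the members' were sought among 10966 others, as Pearson's r over 15 arrays between each gene and the mean of the 6 probe sets, each taken as the difference from the WT mean of its own set. The arrays fall in the same groups and the genes share each array's cell makeup, so r is a description and has no p. The 5 highest were Map3k5 (r = 0.921), a kinase of the stress response, Ormdl3 (0.873), a regulator of sphingolipid synthesis, Icos (0.866), a costimulatory receptor of Treg cells, the Tgtp2/Tgtp1 probe set (0.854) and Gm4951 (0.853). Gm12250 ranked 15 (0.815), Gbp2b 58 (0.736) and Gbp9 5071 (0.162).

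Map3k5 read 8.12, 7.94 and 8.14 in dKO arrays, 7.63, 7.63 and 7.66 in Ikzf4-/- arrays and 7.77, 7.77 and 7.76 in WT 1 to 3. Every dKO array was above and every Ikzf4-/- array below every WT array. The log2 difference was 0.43 (SE 0.07) between dKO and Ikzf4-/- and 0.30 (SE 0.10) between dKO and WT. Icos read 10.40, 10.49 and 10.62 in dKO arrays, 9.94, 10.20 and 9.997 in Ikzf4-/- arrays and 10.20, 10.20 and 10.05 in WT 1 to 3, with no dKO array overlapping the others. All dKO arrays were above all WT arrays for 5.36% of all genes tested, and above all Ikzf4-/- arrays for 4.13%. Both genes were picked for their likeness to the members on these same arrays. Their order of groups and their differences follow from that choice and carry no test.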

How the data were processed

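RNA of sorted splenic CD4+CD25+ cells was measured on 15 single-colour arrays, 3 per group. The values are log2 signals deposited by the authors, made with Affymetrix Expression Console 1.3.1 and RMA per the submitters' processing notes. RMA corrects background, quantile-normalizes the arrays handled together and summarises probes, which compresses differences of dim genes. No source used here names the build behind the array.

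Of 35556 probe sets, 21789 had 1 symbol in the platform annotation, 1621 had several and 12146 had none or were not listed. The brightest probe set was taken for each gene, and 8 probe sets annotated to several genes of these families were added under joint names. Genes entered the test with at least 1 group mean over log2 4.96, the median probe set mean. All arrays entered a limma 3.58.1 fit (R 4.3.3, lmFit and eBayes) with 5 group means. For dKO against Ikzf4-/-, 9 arrays were fitted with replicate number as a block. P-values were adjusted by Benjamini-Hochberg over 10972 genes, and the fit was tested on simulated data. The number of arrays limits the precision.

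Deviations from the group means of same-numbered arrays had correlations of 0.428, 0.196 and 0.267 (dKO with Ikzf4-/-, numbers 1, 2 and 3) and 0.138, 0.217 and 0.304 (Ikzf4-/- with WT), each over 0.1, the limit taken for pairing. For dKO with WT the values 0.0706, 0.045 and 0.173 did not all reach it. The fit with the block nevertheless held WT 1 to 3 and gave all 3 groups the same replicate effects. No label states a pairing.

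The members, lists and tests were chosen with earlier results of these data known. Named genes are the members, every other measured gene of these families, the targeted genes and label checks, per pathway list every gene past the threshold and up to 3 others with the largest difference in dKO against WT, and the 5 genes most like the members. The marker values were named outside this rule. The alternatives were 2 filters, 2 rescalings, other probe sets, arrays, WT groups, weights, covariates and blocks, and each array left out. Alternatives that added or removed the block also changed the arrays fitted (9 with it, 15 without). The difference between both effects of Ikzf2 loss kept all 15.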

Additional observations from a re-analysis of the deposited data

How the results depend on the processing

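In dKO against Ikzf4-/-, all 6 member probe sets kept a positive difference under all 20 alternatives. In dKO against WT they did under all alternatives but leaving out dKO 1, where Gbp7 turned (5 of 6 positive). The limma call of Iigp1 in dKO against Ikzf4-/- held under 7 of 20 alternatives and ended under 13, with adjusted p from 0.0107 to 0.412. Iigp1 was chosen with this contrast known, so the call is no test of it and nothing is read from it. No member passed (0, against 1) without a filter, at equal array medians, with only the groups compared, with Eif2s3y as a covariate and with no replicate block (adjusted p = 0.117 for Iigp1), and 0 to 1 passed with each array left out, where only leaving out WT 1 kept the call. The cause was not tested.

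Medians of the members moved as follows. With all 6 WT arrays pooled, which joins arrays of both sets, the median was 0.12 in Ikzf4-/- against WT and 0.54 in dKO against WT. With B cell markers as a covariate it was 0.025 in Ikzf4-/- against WT. Leaving out WT 1 and Ikzf2-/- 3, an alternative chosen after seeing the data, gave 0.48 for the difference between both effects of Ikzf2 loss. With single arrays left out, the medians were 0.37 to 0.52 in dKO against Ikzf4-/-, 0.29 to 0.48 in dKO against WT, -0.13 to -0.0004 in Ikzf4-/- against WT, 0.14 to 0.31 in Ikzf2-/- against WT, and 0.11 to 0.48 for the difference between both effects.

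Counts of all genes that passed were small and unstable. In Ikzf2-/- against WT 7 genes passed; 2 did without a filter or with the B cell covariate, 19 after quantile normalization, 64 with array weights, 3 without WT 1 and Ikzf2-/- 3, and 0 at equal medians, with only the groups compared, with WT pooled or with Eif2s3y. With single arrays left out it was 0 to 409, the highest without Ikzf2-/- 1, and 156 without Ikzf2-/- 2. In dKO against WT 7 passed; 0 did without a filter, at equal medians or with Eif2s3y, 2 after quantile normalization or without WT 1 and Ikzf2-/- 3, 1 with only the groups compared or with the replicate block, 4 with WT pooled, 21 with array weights, 3 with the B cell covariate, and 0 to 9 with single arrays left out. In dKO against Ikzf4-/- 2 passed; 1 did without a filter or at equal medians, 6 with array weights, 0 with Eif2s3y, 5 with the B cell covariate or without WT 1 and Ikzf2-/- 3, 3 with no replicate block, and 0 to 5 with single arrays left out. For the difference between both effects 0 passed; 1 did with array weights or without WT 1 and Ikzf2-/- 3, and 0 to 4 with single arrays left out. In Ikzf4-/- against WT 0 passed, and 0 to 1 did with single arrays left out. No paired fit was possible for Ikzf2-/- against WT 4 to 6, which share no replicate number. Fits with the block added or removed, some of which also changed the arrays, changed no other call of a named gene.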
